A study of Mus musculus with 48 samples.

Results

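Mammalian mitochondria keep a small circular genome that encodes 13 proteins, all of them core subunits of the respiratory chain or of ATP synthase. The 9 of these genes that the count table lists are described here, out of 14125 genes in all. They were taken by symbol and Ensembl identifier: mt-Nd1, mt-Nd2, mt-Nd3, mt-Nd4, mt-Nd5 and mt-Nd6 (membrane subunits of complex I, the NADH dehydrogenase), mt-Cytb (the cytochrome b of complex III), mt-Co1 (the catalytic subunit of complex IV, cytochrome c oxidase) and mt-Atp6 (a subunit of the proton channel of ATP synthase). The other 4 protein genes of this genome, mt-Co2, mt-Co3, mt-Atp8 and mt-Nd4l, were not analysed here.

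The mitochondrial genome is transcribed from both strands as long precursors, and the tRNAs that lie between most of the genes mark where the precursors are cut into mRNAs, rRNAs and tRNAs. 8 of the 9 genes lie on the plus strand, and mt-Nd6 lies on the minus strand together with a few tRNAs. In human mitochondria most mRNAs carry a short poly(A) tail and the ND6 mRNA is the known exception. Skeletal muscle holds many mitochondria, which supply ATP for contraction.

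RNA came from the mixed gastrocnemius of male C57BL6J mice and was counted by QuantSeq, an oligo(dT)-primed kit that yields 1 read per transcript end, here a 50 bp forward read. Cort_ATGLi mice (n = 14) had 100 ug/ml corticosterone, the main glucocorticoid of mice, in the drinking water for 2 weeks and 571 mg/kg atglistatin, an inhibitor of the lipase ATGL, in the food. Cort_CON mice (n = 14) had corticosterone and control food, and 9 of them were labelled diabetic and 5 nondiabetic. EtOH_ATGLi mice (n = 10) had water with 1% ethanol and atglistatin, and EtOH_CON mice (n = 10) had ethanol water and control food. All mice outside Cort_CON were labelled nondiabetic, no age is given in the labels, and they do not say if ethanol was in the corticosterone water too. The labels give separate blood values for every library, and 1 library was read as 1 mouse, so p-values measure the spread between these libraries.

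Libraries held 10453888 to 24034481 counts each. In 47 of 48 libraries every count was even, while 49.6% of the values were odd in library p13 of EtOH_ATGLi. The muscle fibre markers Acta1, Ckm, Mylpf, Tnnc2 and Mb, 5 of 5 in the table, summed to a median of 80457 CPM (counts scaled to equal library totals) in Cort_ATGLi, 83118 in Cort_CON, 81944 in EtOH_ATGLi and 84711 in EtOH_CON. Libraries p18 and p41 of Cort_ATGLi and p01 of EtOH_CON lay at the end of their group's range for several mitochondrial RNAs, and results that rest on them are also given without them.

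Because the kit reads from transcript ends, the last 50 bases of the transcripts are shown first, read from the GENCODE M21 annotation of GRCm38. mt-Nd5 (chrM:11742-13565, plus strand) and mt-Nd6 (chrM:13552-14070, minus strand) overlap tail to tail by 14 bases, positions 13552 to 13565. Capitals mark these paired bases, which read as reverse complements of each other. Reads over them could not be assigned to 1 gene without the strand setting of the counting, for which the sources used here give no value.
mt-Nd5: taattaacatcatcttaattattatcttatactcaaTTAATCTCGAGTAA
mt-Nd6: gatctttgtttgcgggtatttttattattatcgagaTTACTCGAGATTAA

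For 5 further genes capitals mark runs of at least 4 A, the letters an oligo(dT) primer could pair with inside the transcript. They are mt-Co1 (chrM:5328-6872), mt-Atp6 (chrM:7927-8607), mt-Nd3 (chrM:9459-9806), mt-Nd4 (chrM:10167-11544) and mt-Cytb (chrM:14145-15288), all on the plus strand. mt-Nd4 and mt-Cytb are shown as the most abundant of the genes, and mt-Co1, mt-Nd3 and mt-Atp6 for the sequence they share with other genes. A run is a description of the letters only.
mt-Co1: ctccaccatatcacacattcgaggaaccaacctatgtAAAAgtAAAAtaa
mt-Atp6: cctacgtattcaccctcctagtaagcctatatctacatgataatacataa
mt-Nd3: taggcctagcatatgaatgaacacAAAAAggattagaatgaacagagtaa
mt-Nd4: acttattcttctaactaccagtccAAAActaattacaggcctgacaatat
mt-Cytb: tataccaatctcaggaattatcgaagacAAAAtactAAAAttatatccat

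Parts of the mitochondrial genome also stand in the nuclear genome as pseudogenes, and a 50-base read from an identical stretch fits both places. Of the 632 windows of 50 bases in mt-Atp6, 629 (99.5%) occurred letter for letter in another annotated transcript, and in mt-Nd3 293 of 299 (98.0%) did. The share was 62.2% in mt-Nd4 (827 of 1329 windows) and 51.1% in mt-Co1 (765 of 1496), whose last window was itself shared. In mt-Nd2 (chrM:3914-4951) it was 8.19% and in mt-Nd5 7.61%. mt-Nd1 (chrM:2751-3707), mt-Nd6 and mt-Cytb shared no window with another annotated transcript. The sources used here do not say how reads that fit several places were counted, so the levels of mt-Atp6, mt-Nd3, mt-Nd4 and mt-Co1 are uncertain in that respect.

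**Figure D1:**
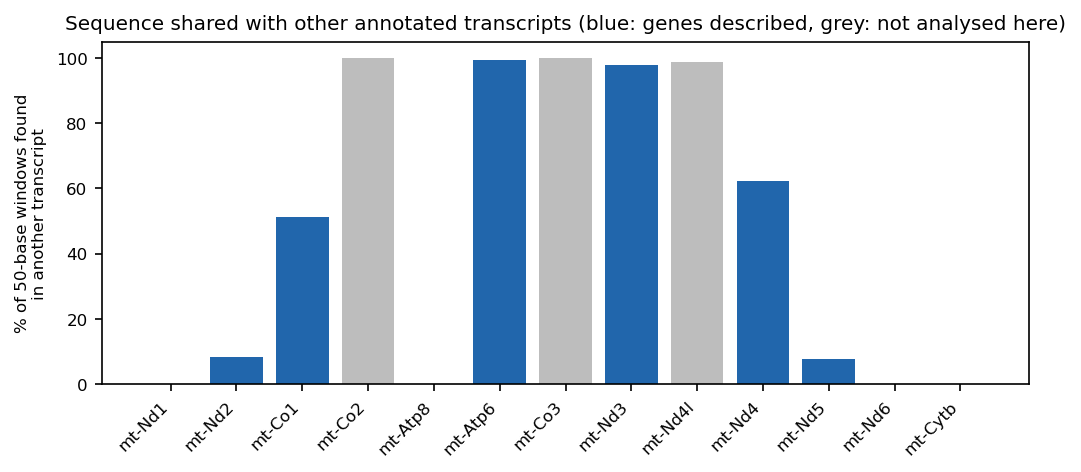
Percent of all 50-base windows of each mitochondrial protein-coding transcript that occur letter for letter in another annotated transcript of GENCODE M21, in genome order; blue bars are the 9 genes described and grey bars genes not analysed here. mt-Atp6 and mt-Nd3 reach 99.5% and 98.0%, while mt-Nd1, mt-Nd6, mt-Cytb and mt-Atp8 have none.

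mt-Atp6 was almost without counts. It had 158 counts over all libraries, at most 16 in 1 library, and was at 0 in 4 Cort_ATGLi, 3 Cort_CON, 6 EtOH_ATGLi and 7 EtOH_CON libraries. A count of 0 allows up to 3 counts, or 0.125 to 0.266 CPM at the depth of these 20 libraries, counting error only. If the even counts of 47 libraries mean that each read was entered 2 times, which was not tested, the limit in the even-count libraries is 6 counts, or up to 0.532 CPM. The pseudogene Gm10925, which carries the 629 shared windows, had more counts (623) than mt-Atp6 itself. For mt-Nd3 and mt-Co1 the order was the other way: Gm28438, which shares 293 windows with mt-Nd3, had 488 against 57614 for mt-Nd3, and Gm13340, which shares 411 with mt-Co1, had 19557 against 2708236 for mt-Co1. mt-Atp6 did not pass the filter on low counts in the comparisons of the 4 groups, so 8 of the 9 genes were tested there.

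The 9 genes together held a large and even part of every library. Their summed share of counts had a lowest, median and highest value of 16.9%, 22.1% and 26.3% in Cort_ATGLi, and of 19.0%, 22.4% and 25.4% in Cort_CON. It was 19.3%, 22.3% and 23.3% in EtOH_ATGLi, and 19.3%, 22.2% and 26.1% in EtOH_CON. All 4 ranges overlapped. The medians ran from 22.1% to 22.4%, and no test was made on the sum. Of the counts on all 24 mitochondrial features in the table, a median of 89.7% lay on these 9 genes.

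The most and the least abundant genes differed far more from each other than any gene tested differed between groups. Some neighbours in abundance, such as mt-Nd1 and mt-Nd2, were close. Per kilobase of transcript, mt-Nd4 had the highest median share over the 48 libraries, 7.41% of counts per kb, followed by mt-Cytb (4.21%), mt-Nd1 (3.23%) and mt-Nd2 (3.03%). mt-Nd5 (0.317% per kb) and mt-Co1 (0.244% per kb) lay about an order of magnitude lower. Then came mt-Nd3 (0.0225% per kb), mt-Nd6 (0.00274% per kb) and mt-Atp6. Each gene exceeded the next in this order within 48 of 48 libraries, except that mt-Nd1 exceeded mt-Nd2 in 35 of 48. A kit that reads transcript ends does not count in proportion to length, so these shares order the counts and not necessarily the RNA molecules.

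**Figure D2:**
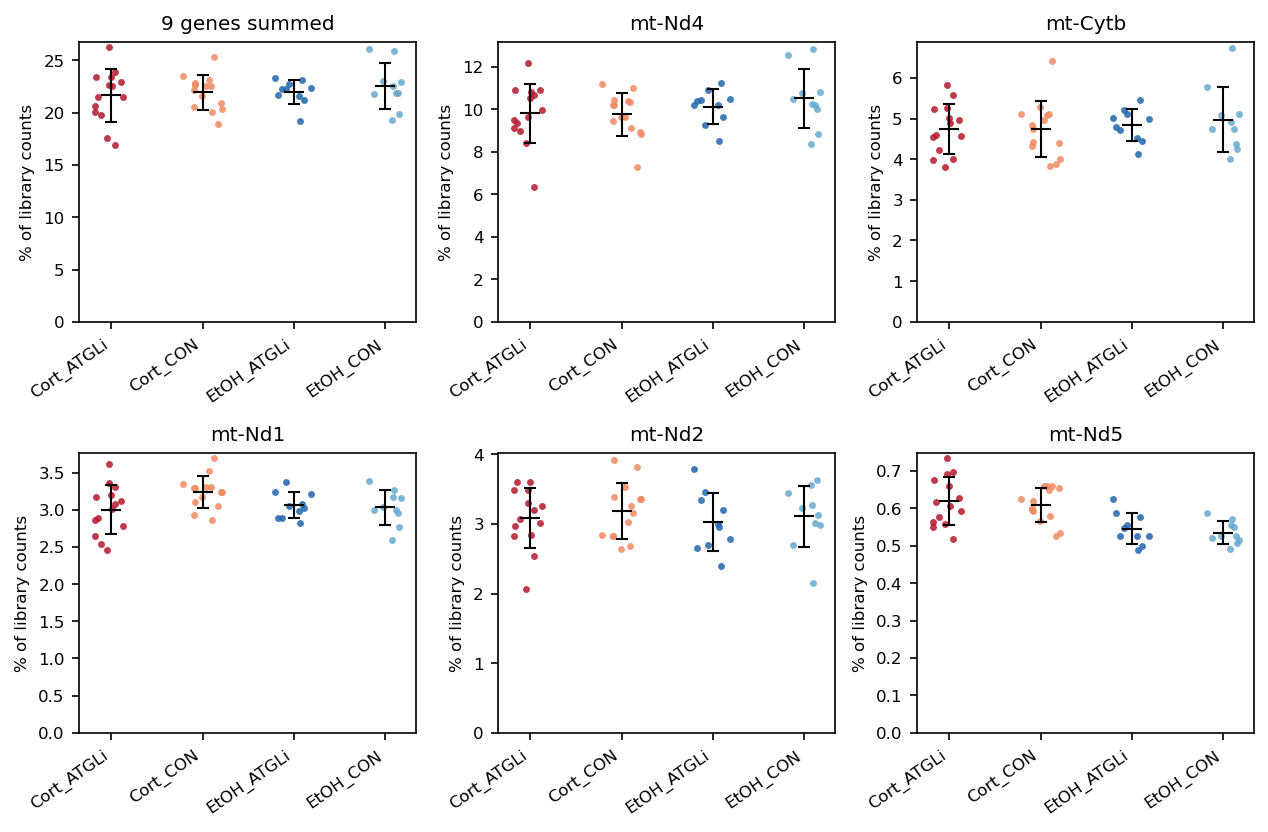
Share of library counts (%) of the 9 genes summed and of mt-Nd4, mt-Cytb, mt-Nd1, mt-Nd2 and mt-Nd5; each point is 1 library, the bar is the group mean ± SD, and every axis starts at 0. The summed share overlaps between all groups, with medians of 22.1% to 22.4%. For mt-Nd5, 10 of 14 Cort_CON points lie above all EtOH_CON points, and 6 of 14 Cort_ATGLi points above all EtOH_ATGLi points.

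Corticosterone against vehicle on the control food asks what the hormone did without the lipase inhibitor. Of the 8 genes tested, 4 were higher in Cort_CON than in EtOH_CON and none was lower, by edgeR's quasi-likelihood test at an adjusted p below 0.05. In this comparison 38.4% of all 12592 genes tested passed the threshold, and 18.9% were higher. The median log2 fold change was 0.22 over the 8 genes and -0.0012 over all genes tested.

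mt-Nd6, the complex I subunit encoded on the minus strand, had the largest difference of the 8. Its lowest, median and highest values were 12.98, 18.6 and 40.8 CPM in Cort_CON, against 5.65, 10.998 and 12.5 CPM in EtOH_CON. The groups did not overlap: all 14 Cort_CON libraries exceeded all 10 EtOH_CON libraries. How many of all genes tested separate in this way is not given here, while 38.4% of them passed the threshold. This was a log2 fold change of 1.23 (SE 0.20, edgeR adjusted p = 2.59e-06). It was 1.13 without the highest library, p45 of Cort_CON, and 1.16 without the lowest, p01 of EtOH_CON. The longest run of A in the mt-Nd6 transcript was 3 bases, against 5 to 8 in the other genes described. Which RNA species the mt-Nd6 counts came from was not tested.

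mt-Nd5, the complex I subunit whose 3′ end overlaps that of mt-Nd6, rose by a smaller amount. It ranged from 5245 to 6602 CPM in Cort_CON with a median of 6106, against 4900 to 5869 CPM with a median of 5264 in EtOH_CON. The ranges overlapped, with 10 of 14 Cort_CON libraries above the highest EtOH_CON library. It had a log2 fold change of 0.30 (SE 0.08, edgeR adjusted p = 0.00138).

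Since mt-Nd5 had far more counts than mt-Nd6, mt-Nd6 was also set against mt-Nd5 within each library. Per 1000 mt-Nd5 counts, mt-Nd6 had a median of 3.03 in Cort_CON and 2.03 in EtOH_CON, with 12 of 14 Cort_CON libraries above the highest EtOH_CON library. The median was 2.81 in Cort_ATGLi and 1.82 in EtOH_ATGLi, with 5 of 14 Cort_ATGLi libraries above the highest EtOH_ATGLi library. Within groups the log2 levels of both genes had a Pearson correlation of -0.10 over the 48 libraries (Spearman's rho -0.03), so libraries high in 1 of them were not generally high in the other.

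mt-Co1 and mt-Nd1 passed the threshold by a narrow margin. mt-Co1 had a lowest, median and highest value of 3473, 3917 and 4274 CPM in Cort_CON, against 2902, 3592 and 4067 CPM in EtOH_CON, a log2 fold change of 0.22 (SE 0.08, edgeR adjusted p = 0.0279). mt-Nd1 had 28643, 32666 and 37027 CPM in Cort_CON, against 25922, 30206 and 33842 CPM in EtOH_CON, a log2 fold change of 0.21 (SE 0.08, edgeR adjusted p = 0.0244). For both genes the groups overlapped, and 12 of 14 Cort_CON libraries lay above the EtOH_CON median. Neither passed with library totals in place of TMM scaling, where mt-Co1 was at 0.11 and mt-Nd1 at 0.10 beside a median of all genes of -0.11, nor against the 5 nondiabetic Cort_CON mice alone. The mt-Nd1 call was lost without p03 or p04 of EtOH_CON, at a log2 fold change of no less than 0.18, and the mt-Co1 call without p28 of Cort_CON or p01, p03 or p15 of EtOH_CON, at no less than 0.18.

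The remaining 4 genes did not pass. mt-Nd3 had a median of 85.3 CPM in Cort_CON and 68.8 CPM in EtOH_CON, with a log2 fold change of 0.54 (SE 0.36, edgeR adjusted p = 0.246). For mt-Nd2 it was 0.15 (95% interval -0.06 to 0.36) and for mt-Cytb 0.05 (interval -0.13 to 0.23). For mt-Nd4, the most abundant, it was 0.01 (interval -0.17 to 0.20).

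Corticosterone against vehicle on the atglistatin food makes the same comparison in mice that also had the lipase inhibitor. Of the 8 genes tested 2 were higher in Cort_ATGLi than in EtOH_ATGLi and none was lower, where 30% of all genes tested passed and 15% were higher. The median log2 fold change of the 8 was 0.11, and -0.0017 over all genes.

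mt-Nd6 ranged from 9.12 to 50.3 CPM in Cort_ATGLi with a median of 17.3, against 6.92 to 14.9 CPM with a median of 9.96 in EtOH_ATGLi. The groups overlapped here, with 11 of 14 Cort_ATGLi libraries above the highest EtOH_ATGLi library. The log2 fold change was 0.99 (SE 0.20, edgeR adjusted p = 0.000141), and 0.84 without the highest library, p41 of Cort_ATGLi.

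mt-Nd5 ranged from 5189 to 7351 CPM in Cort_ATGLi with a median of 6122, against 4882 to 6243 CPM with a median of 5368 in EtOH_ATGLi. The ranges overlapped, with 6 of 14 Cort_ATGLi libraries above the highest EtOH_ATGLi library and 13 of 14 above the EtOH_ATGLi median. Its log2 fold change was 0.24 (SE 0.08, edgeR adjusted p = 0.0130). Between the other genes the log2 fold changes ran from 0.02 for mt-Nd4 to 0.50 for mt-Nd3, with 0.12 for mt-Co1 (edgeR adjusted p = 0.295) and 0.04 for mt-Nd1 (edgeR adjusted p = 0.774).

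Shares within the 9 genes do not depend on how libraries are scaled to each other. mt-Nd5 made up 2.60 to 3.11% of the counts of the 9 genes in Cort_CON (median 2.75%), against 2.20 to 2.56% in EtOH_CON (median 2.40%). These ranges did not overlap. The share of all genes that separate between these groups is not given here, while 38.4% of genes tested passed the threshold on control food. On atglistatin food it made up 2.69 to 3.17% in Cort_ATGLi (median 2.85%), against 2.35 to 2.71% in EtOH_ATGLi (median 2.45%), and 13 of 14 Cort_ATGLi libraries lay above the highest EtOH_ATGLi library. mt-Nd1 made up a median of 14.7% in Cort_CON and 13.6% in EtOH_CON, with 13 of 14 Cort_CON libraries above the highest EtOH_CON library. On atglistatin food its medians were 13.6% in Cort_ATGLi and 13.9% in EtOH_ATGLi, and only 1 Cort_ATGLi library lay above the EtOH_ATGLi range.

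**Figure D3:**
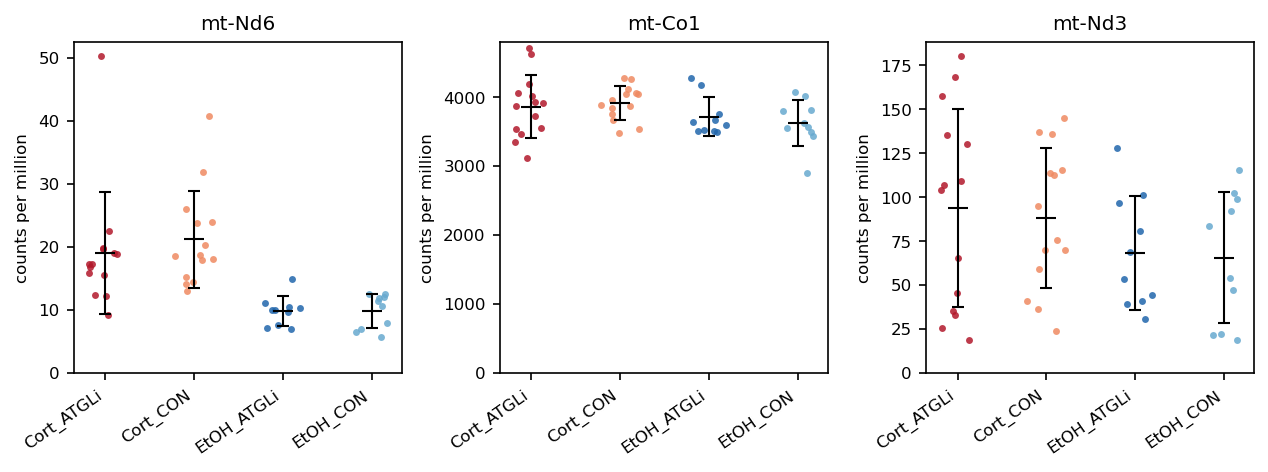
Levels in CPM of mt-Nd6, mt-Co1 and mt-Nd3 by group; each point is 1 library and the bar is the group mean ± SD. For mt-Nd6 all Cort_CON points lie above the EtOH_CON points and p41 stands highest in Cort_ATGLi at 50.3 CPM, while mt-Nd3 spreads widely in every group.

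The other RNAs of the mitochondrial genome give the setting of the mt-Nd6 result. The table holds 2 rRNAs and 13 tRNAs besides the 9 genes, and 14 of these 15 passed the filter. On the minus strand, mt-Nd6 and all 4 tested tRNAs were higher under corticosterone on both foods. mt-Tq, the glutamine tRNA, had a median of 31.6 CPM in Cort_CON and 11.9 CPM in EtOH_CON, a log2 fold change of 1.44 (SE 0.26, edgeR adjusted p = 1.57e-05). On atglistatin food it had 26.8 CPM in Cort_ATGLi and 10.9 CPM in EtOH_ATGLi, a log2 fold change of 1.40 (SE 0.26, edgeR adjusted p = 3.80e-05).

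The other minus-strand tRNAs moved by similar amounts. The log2 fold change of mt-Tp, the proline tRNA, was 1.02 on control food and 0.92 on atglistatin food. That of mt-Ta, the alanine tRNA, was 0.95 and 1.13, and that of mt-Tc, the cysteine tRNA, 1.75 and 1.39. mt-Tc had at most 42 counts in a library. Against the 5 nondiabetic Cort_CON mice alone the mt-Ta call was lost, at 0.71. The last minus-strand tRNA of the table, mt-Te, the glutamate tRNA next to mt-Nd6, had 205 counts in all and did not pass the filter. Its median was 0.378 CPM in Cort_CON and 0.0492 CPM in EtOH_CON, and without the filter its log2 fold change was 2.39 (edgeR adjusted p = 0.00452), a size that depends on the prior count of the fit at so few counts. On atglistatin food it was 0.93 without the filter (edgeR adjusted p = 0.242).

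The rise was not confined to the minus strand. Of the 8 plus-strand tRNAs tested, 4 were higher in Cort_CON than in EtOH_CON and 3 were higher in Cort_ATGLi than in EtOH_ATGLi, where 18.9% and 15% of all genes were higher. mt-Tl2, a leucine tRNA just before mt-Nd5, rose by a log2 fold change of 1.75 (SE 0.33) on control food and 1.57 (SE 0.32) on atglistatin food. mt-Ts2, a serine tRNA beside it, rose by 1.12 and 1.06, and mt-Tl1, the leucine tRNA before mt-Nd1, by 0.97 and 0.96. Against the 5 nondiabetic Cort_CON mice alone neither mt-Ts2 (0.86) nor mt-Tl1 (0.75) was called, and on atglistatin food the mt-Ts2 call was lost without p18 of Cort_ATGLi, at 0.81. mt-Tm, the methionine tRNA before mt-Nd2, rose by 0.52 on control food. That call was lost with library totals (0.39), against nondiabetic mice alone (0.31), and without p27 or p28 of Cort_CON or p01, p15 or p16 of EtOH_CON (at 0.42 to 0.47). On atglistatin food mt-Tm was at 0.46 and passed without p40 or p41 of Cort_ATGLi or p05 or p09 of EtOH_ATGLi (at 0.49 to 0.53).

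The remaining RNAs did not pass in either comparison. mt-Tv was at 0.48 on control food and 0.47 on atglistatin food, mt-Tw at 0.43 and 0.12. mt-Tv passed on control food by limma voom (0.51), with only the libraries of the comparison (0.47) and without p18 of Cort_ATGLi (0.48) or p10 of EtOH_CON (0.55), and on atglistatin food without p01 of EtOH_CON and p41 of Cort_ATGLi together (0.52). mt-Tw passed on control food without p34 of Cort_CON (0.49). mt-Ti was at 0.13 and 0.09, and mt-Tt at -0.20 and -0.28. The rRNAs mt-Rnr1 and mt-Rnr2 were at 0.07 and 0.17 on control food, and at 0.07 and 0.09 on atglistatin food. The tRNAs of the table are 59 to 75 bases long, and a mature tRNA carries no poly(A) tail, so these values describe counts over these positions. Which RNA species the counts came from was not tested.

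**Figure D4:**
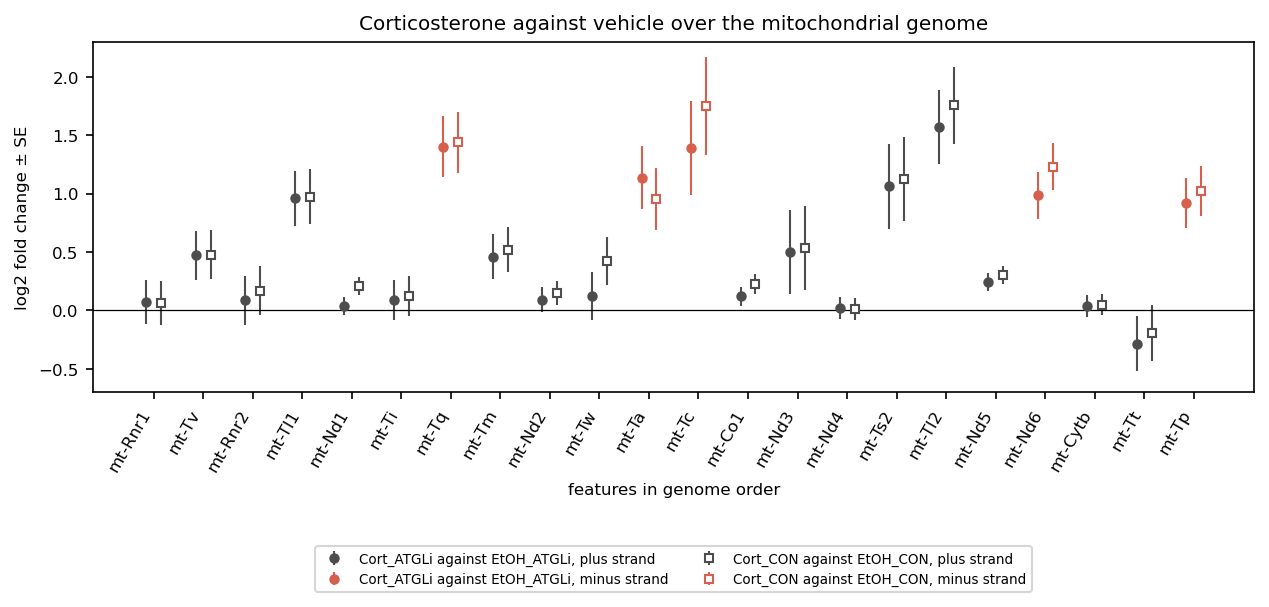
Log2 fold change ± SE of corticosterone against vehicle for the 22 mitochondrial features tested, in genome order; filled circles are Cort_ATGLi against EtOH_ATGLi, open squares Cort_CON against EtOH_CON, and red marks features annotated on the minus strand. All 5 minus-strand features lie at 0.92 or above, the plus-strand tRNAs mt-Tl1, mt-Ts2 and mt-Tl2 reach similar values, and mt-Nd4, mt-Cytb and both rRNAs lie near 0.

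Atglistatin against control food under vehicle gave no call among the 8 genes. None of 8 passed, beside 3 of 12592 genes over the whole table (0.0238%, of which 0.0159% higher and 0.00794% lower), and DESeq2 and limma voom called none of them. mt-Nd6 had a median of 9.96 CPM in EtOH_ATGLi and 10.998 CPM in EtOH_CON, with a log2 fold change of -0.01 and a 95% interval of -0.44 to 0.42. The 8 log2 fold changes had a median of -0.0016.

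Atglistatin against control food under corticosterone gave no call either, beside 201 genes (1.6%) over the whole table, 0.667% higher and 0.929% lower. mt-Nd1 came nearest: its lowest, median and highest values were 24614, 30479 and 36225 CPM in Cort_ATGLi, against 28643, 32666 and 37027 CPM in Cort_CON. 4 Cort_ATGLi libraries lay below the lowest Cort_CON library. The log2 fold change was -0.17 (edgeR p = 0.0189 unadjusted, adjusted p = 0.270). For mt-Nd6, medians were 17.3 CPM in Cort_ATGLi and 18.6 CPM in Cort_CON, with a log2 fold change of -0.26 that was -0.40 without p41 of Cort_ATGLi.

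The difference between the corticosterone effects on atglistatin and on control food was tested directly, as the interaction. Diabetic mice were in Cort_CON only, so the interaction also mixes food with disease state. None of the 8 genes passed, beside 5 genes (0.0397%) over the whole table, 0.0238% above 0 and 0.0159% below. For mt-Nd1 the interaction was -0.18 (95% interval -0.39 to 0.04), for mt-Co1 -0.10 (interval -0.34 to 0.13), for mt-Nd5 -0.06 (interval -0.27 to 0.16) and for mt-Nd6 -0.25 (interval -0.79 to 0.30). The mt-Nd1 and mt-Co1 calls on control food alone are therefore not shown to differ from the values on atglistatin food.

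Within Cort_CON the 9 diabetic mice were compared with the 5 nondiabetic mice, with their own filter that kept all 9 genes and 13084 genes in all. No gene of the table passed edgeR's test (0%), and 642 had an unadjusted p below 0.05. None of the 9 was called by DESeq2 or limma voom either. mt-Nd6 ranged from 12.98 to 40.8 CPM in diabetic mice with a median of 20.3, against 14.1, 17.96, 15.2, 26.1 and 14.3 CPM in the 5 nondiabetic mice. The log2 fold change was 0.42 with a 95% interval of -0.08 to 0.92, and 0.64 without p36 (edgeR adjusted p = 0.820).

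The 5 nondiabetic Cort_CON mice were also set against EtOH_CON, since disease state and hormone cannot be told apart in the other Cort_CON mice. The mt-Nd6 log2 fold change was then 0.94 and that of mt-Nd5 0.27, and both passed edgeR's test (adjusted p = 0.00321 and 0.0463). All 5 nondiabetic values of mt-Nd6 exceeded the highest EtOH_CON value of 12.5 CPM. Library p36, the highest of the 5 in mt-Nd6, had a fed glucose of 242 (unit not given in the labels), against 131 to 145 in the other 4 and 254 to 407 in the diabetic mice. Without p36, an alternative chosen after seeing the data, mt-Nd6 was at 0.72 and still passed (edgeR adjusted p = 0.0357), and mt-Nd5 was at 0.24 and did not (edgeR adjusted p = 0.118). Of the minus-strand tRNAs mt-Tq still passed there, at 1.20, while mt-Tp (0.50), mt-Ta (0.47) and mt-Tc (1.25) did not. With p36 the number of genes called was 2 of 8, against 4 of 8 with all Cort_CON mice, in a fit with fewer libraries. Over the whole table the number called fell as well, from 4839 to 2951, so the fall is not particular to these genes.

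2 of the genes varied far more among libraries of 1 group than the others. The within-group SD of log2 CPM was 0.92 for mt-Nd3 and 0.45 for mt-Nd6, against 0.12 to 0.21 for mt-Nd1, mt-Nd2, mt-Nd4, mt-Nd5, mt-Co1 and mt-Cytb. Over 5277 other genes with a mean of 10 to 200 CPM, the range in which mt-Nd3 and mt-Nd6 lie, the median SD was 0.22. mt-Nd3 had a lowest, median and highest value of 18.6, 106 and 180 CPM in Cort_ATGLi and 23.7, 85.3 and 145 CPM in Cort_CON. It had 30.4, 61.2 and 128 CPM in EtOH_ATGLi and 18.6, 68.8 and 115 CPM in EtOH_CON. Libraries below 60 CPM came from every group: 5 of Cort_ATGLi, 4 of Cort_CON, 5 of EtOH_ATGLi and 5 of EtOH_CON.

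The abundant genes did not move as 1 block within groups. After group means were removed, mt-Nd4 and mt-Cytb had a Pearson correlation of 0.80 over the 48 libraries (Spearman's rho 0.83), and mt-Nd1 and mt-Cytb 0.81 (rho 0.82). mt-Nd2 instead went with the rRNAs, at 0.78 with mt-Rnr1 (rho 0.76) and 0.75 with mt-Rnr2 (rho 0.76), and at -0.08 with mt-Nd4. mt-Rnr2 and mt-Nd4 were at -0.49 (rho -0.53). Without the 2 libraries farthest from the median on the first-named gene, mt-Nd4 with mt-Cytb was at 0.84 and mt-Nd1 with mt-Cytb at 0.78. mt-Nd2 was then at 0.73 with each rRNA, and mt-Rnr2 with mt-Nd4 at -0.45. All are shares of the same libraries, in which 1 abundant gene lowers the share of the rest, so they are given as a description.

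The genes most like the sum of the 9 within groups, among 7612 genes of the nuclear genome with a mean of at least 5 CPM, were Coq7 (r = 0.64, an enzyme of ubiquinone synthesis), Vegfb (0.63, a growth factor of the VEGF family), Atp5g3 (0.61, the c subunit of ATP synthase), G0s2 (0.61, an inhibitor protein of ATGL) and Glrx5 (0.60, a mitochondrial glutaredoxin). For Coq7 the value rested in part on p18 and p41 of Cort_ATGLi: it was 0.49 without them, with a rho of 0.41. The most opposite were Smad4 (-0.79, rho -0.73, and -0.73 without those libraries), Rdx (-0.78), Sfr1 (-0.74), Ap2b1 (-0.73) and Serbp1 (-0.73).

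Some nuclear genes correlated more closely with mt-Nd3 than the other mitochondrial genes tested and the rRNAs did. The nuclear search covered 7612 genes, so its highest values are favoured in advance, and mitochondrial tRNAs were not compared. The pairs with nuclear genes given here were picked after their values were seen. Over the 48 libraries mt-Nd3 had a correlation of 0.92 with Snhg6 (rho 0.91), 0.91 with Ensa (rho 0.89) and 0.90 with Araf (rho 0.90), and of no more than 0.28 with the other 7 genes tested or either rRNA. mt-Rnr2 had one of 0.96 with Arhgap5 (rho 0.90), and 0.90 without p06 of EtOH_ATGLi and p01 of EtOH_CON. mt-Rnr2 was closer still to mt-Rnr1, at 0.98 (rho 0.97), and at 0.96 without those libraries. mt-Nd6 was at -0.78 with Epm2a and at 0.68 with Calr, and at -0.62 and 0.44 without p41 of Cort_ATGLi and p45 of Cort_CON.

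**Figure D5:**
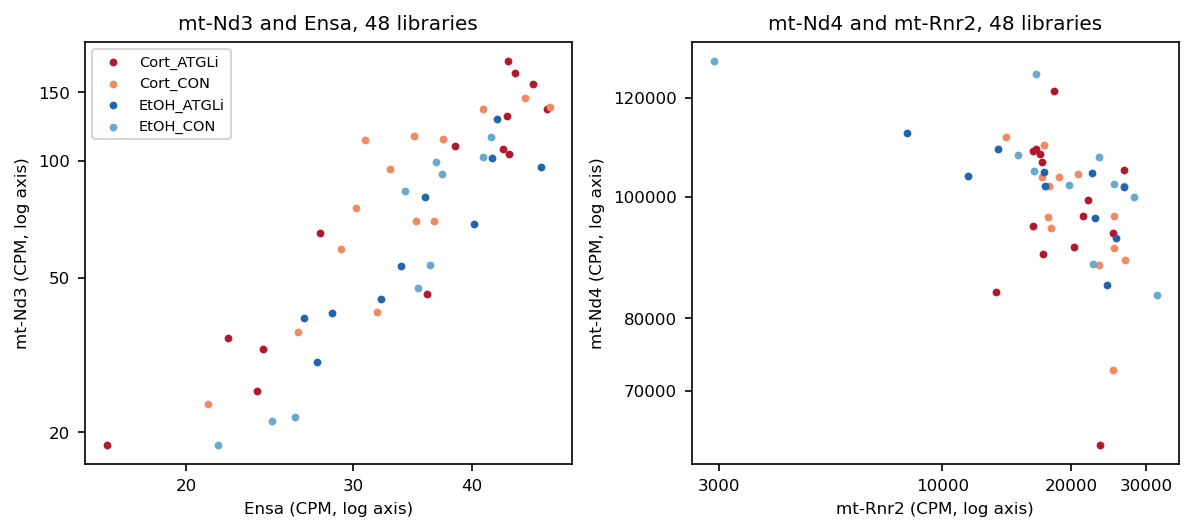
Each point is 1 of 48 libraries, coloured by group, on log axes in CPM: mt-Nd3 against Ensa, a gene of the nuclear genome, and mt-Nd4 against mt-Rnr2. mt-Nd3 runs with Ensa through all 4 groups (within-group r = 0.91), while mt-Nd4 tends to be lower where mt-Rnr2 is higher (r = -0.49), with p01 of EtOH_CON far to the left.

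Most genes of the nuclear genome that encode respiratory chain subunits did not pass. Of 77 tested, 5 were higher and 1 lower in Cort_CON than in EtOH_CON, and 4 were higher and 1 lower in Cort_ATGLi than in EtOH_ATGLi. These are 7.79% and 6.49% of the list, where 38.4% and 30% of all genes were called, and the difference in shares was not tested. The list's median log2 fold change was 0.04 on control food and 0.01 on atglistatin food. Complex I, to which 6 of the 9 genes belong, had 3 of 36 higher and 1 lower on control food, and 3 higher and none lower on atglistatin food. Ndufs1, a core subunit, was lower on control food at -0.22 (edgeR adjusted p = 0.0422).

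None of the 4 complex II and 9 complex III genes was called on either food. In complex IV 1 of 13 was higher on both, Cox6a2, the muscle form of subunit 6A, at 0.36 (edgeR adjusted p = 0.00154) and 0.31 (edgeR adjusted p = 0.00912). In complex V 1 of 15 was called on each food: Atp5g1 was higher on control food at 0.26 and Atp5g3 lower on atglistatin food at -0.25. Both encode the same c subunit of ATP synthase.

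For genes that copy and transcribe the mitochondrial genome the share called was 15.8% on each food, beside 38.4% and 30% of all genes. Of 19 tested, 2 were higher and 1 lower on control food, and 3 were higher and none lower on atglistatin food. Polg, the DNA polymerase of mitochondria, had a median of 14.3 CPM in Cort_CON and 12.1 CPM in EtOH_CON, a log2 fold change of 0.24 (edgeR adjusted p = 0.0151), and 0.33 on atglistatin food (edgeR adjusted p = 0.00103). Top1mt, the mitochondrial topoisomerase, was lower on control food at -0.38 (edgeR adjusted p = 0.00416).

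Of 21 genes that cut, modify or degrade mitochondrial RNA, 2 were higher and 2 lower on control food and 1 was higher and 1 lower on atglistatin food, or 19.05% and 9.52% of the list against 38.4% and 30% of all genes. Rexo2, an oligoribonuclease that clears short RNA fragments, was lower on both foods, at -0.26 (edgeR adjusted p = 0.00494) and -0.24 (edgeR adjusted p = 0.0110). Fastk, of a family of mitochondrial RNA-binding proteins, was higher on control food at 0.18, and Elac2, which cuts the 3′ ends of tRNAs, was higher on atglistatin food at 0.29 (edgeR adjusted p = 0.0178).

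Of 10 regulators of mitochondrial biogenesis 1 was higher and 3 were lower on each food. This share of 40% lies near the 38.4% and 30% of all genes, so it is no result about the list. Ppargc1b, a coactivator of mitochondrial genes, had a median of 10.2 CPM in Cort_CON and 19.3 CPM in EtOH_CON, a log2 fold change of -0.81 (edgeR adjusted p = 7.97e-09), and was at -0.74 on atglistatin food. Ppara, a receptor that drives fatty acid oxidation genes, was higher on control food at 0.87 (edgeR adjusted p = 0.00566), and its relative Ppard was higher on atglistatin food at 0.32 (edgeR adjusted p = 0.0271). In the comparisons of the foods none of these genes was called.

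Marker RNAs of other cell types and of fibre types also differed with corticosterone, beside 38.4% of all genes called on control food and 30% on atglistatin food. The fibro-adipogenic markers Pdgfra, Dcn, Lum, Smoc2, Cd34 and Col1a1, 6 of 6 in the table, summed to 407 to 974 CPM in Cort_CON, against 1112 to 1408 CPM in EtOH_CON, and 5 of the 6, all but Pdgfra, were lower. They summed to 532 to 845 CPM in Cort_ATGLi, against 835 to 1522 CPM in EtOH_ATGLi, and 6 of 6 were lower. Of the macrophage markers 3 of 6 were lower on each food (Adgre1, Csf1r and Mrc1) and none was higher. Their summed median was 43.7 CPM in Cort_ATGLi against 60.8 CPM in EtOH_ATGLi, and 48.1 CPM in Cort_CON against 69.7 CPM in EtOH_CON. Of the endothelial markers 3 of 5 were lower on each food (Cdh5, Kdr and Tek) and Flt1 was higher. Of the erythroid markers the 4 globin genes were higher on control food and Hbb-bs alone on atglistatin food. Their summed median was 1100 CPM in Cort_ATGLi against 916 CPM in EtOH_ATGLi, and 1248 CPM in Cort_CON against 903 CPM in EtOH_CON. Of 5 adipocyte markers Lep was higher and Cfd lower on control food, and Lep and Cidec were higher on atglistatin food.

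The fibre markers did not move as 1 group. Among the fast fibre markers Actn3 and Myh1 were higher on both foods, at log2 fold changes of 1.03 and 0.79 on control food, Pvalb, a calcium buffer, was lower on both, at -0.51 and -0.71, and Myh4 was not called. Pvalb had a median of 9863 CPM in Cort_CON and 14860 CPM in EtOH_CON, and the 4 fast fibre markers summed to a median of 40244 CPM in Cort_CON and 45473 CPM in EtOH_CON. Of 6 slow fibre markers Myl2 and Tnni1 were higher on both foods and Tnnt1 also on atglistatin food. Myh2, the myosin of the 2A fibre, was higher on both, at 0.38 and 0.39. Of the general fibre markers Mylpf and Mb were higher on both foods, Acta1 was higher on control food and Tnnc2 lower on atglistatin food. In these bulk samples fewer cells of a type and less RNA per cell cannot be told apart, and the part of these markers in the mt-Nd6 and mt-Nd5 results was not tested.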

How the data were processed

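RNA of mixed gastrocnemius from 48 mice was analysed from the deposited table of raw counts, that is, read counts per gene that the authors made. Per the submitters' processing notes, the work rests on build GRCm38 with DESeq2 1.24.0 in R 3.6.1. For the aligner, counter, strand setting and annotation the sources used here name nothing. The authors' table of normalized values and a checksum file were not used. Symbols for 14094 of 14125 identifiers came from GENCODE M21.

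Depth ranged from 10453888 to 24034481 counts per library, which sets the precision of rare RNAs such as mt-Atp6; the labels name no molecular identifiers, so reads are not independent molecules. Genes were filtered with filterByExpr (minimum count 10, minimum total 15), scaled by TMM and tested with edgeR 4.0.16's quasi-likelihood test (robust, two-sided, R 4.3.3) in 1 fit of the 4 groups, with Benjamini-Hochberg adjustment over all genes tested and a threshold of 0.05; diabetes was tested in a fit of 5 groups. The fit was checked on simulated counts. SEs were derived from the F statistic, and 95% intervals from the SE. CPM values use library totals. Correlations used log2(CPM + 0.5) with group means removed.

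Alternatives were DESeq2 1.42.0, limma 3.58.1 voom, other scalings, no filter, halved counts, fewer libraries and each library left out. The members and lists were chosen with earlier results of these data known. Named genes were all 9 members, all other mitochondrial RNAs, the member of each list with the smallest p in each direction and comparison, and the 5 genes most and least like the members' sum. Some results under this rule are not reported here.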

Additional observations from a re-analysis of the deposited data

Results flagged for a closer look

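Single libraries lay far from the rest of their group in 6 of 44 sets of libraries examined, where chance gives about 1 in 20 for independent sets. These sets are not independent: mt-Nd2, mt-Rnr1 and mt-Rnr2 correlate at 0.75 to 0.98 within groups. Only EtOH_ATGLi, EtOH_CON and the diabetic and nondiabetic Cort_CON mice were examined. Cort_ATGLi and Cort_CON as a whole were not. 3 of the 6 were library p36 of the nondiabetic Cort_CON mice, which had 39244 CPM of mt-Nd2, 7252 CPM of mt-Rnr1 and 26553 CPM of mt-Rnr2, against a next value of 28296, 5018 and 17973 CPM. mt-Cytb stood at 64031 CPM in p50 of the diabetic Cort_CON mice, against 51041 CPM in the next library. mt-Nd6 stood at 14.9 CPM in p14 of EtOH_ATGLi, against 11.1 CPM in the next. The 9 genes summed to 19.3% of counts in p09 of EtOH_ATGLi, the lowest of that group, against 21.2% in the next.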

How the results depend on the processing

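On control food mt-Nd6 passed in each of the 48 fits that left out 1 library and each of 12 other settings, at 0.72 to 1.28, and mt-Nd5 in each but that of 4 nondiabetic mice without p36, at 0.19 to 0.32. On atglistatin food they passed in each fit but those of the 4 libraries whose title numbers both groups share. The count of genes called on control food was 2 with library totals 2 with only nondiabetic Cort_CON mice, and 1 when p36 was also left out, an alternative chosen after seeing the data, and between 2 and 4 with 1 library left out (2 without p03 of EtOH_CON). On atglistatin food the replicate block gave 1 call, and the same 4 libraries without it, an alternative chosen after seeing the data, also gave 1: mt-Nd3 passed there and mt-Nd5 and mt-Nd6 did not. In the comparison Cort_ATGLi vs EtOH_ATGLi, mt-Tc was at -0.052 and mt-Ts2 at -0.21 under the block, and at -0.10 and -0.14 in those libraries without it, in a fit of fewer samples. Nothing in the labels says that the numbers pair the samples. Libraries of equal number correlated at -0.06 to 0.15, which cannot decide if they were paired. The block between EtOH_ATGLi and EtOH_CON called 0 members. Library totals moved the median of all genes by -0.11 on control food. Values not past the threshold changed sign in 151 of 2874 refits of the 9 genes. Over all genes, counts moved by more than 1.5 times to 2951 on control food (nondiabetic mice only; 2589 without p36), to 1880 under the block and 1555 in its libraries without it on atglistatin food, to 0 to 38 between foods under vehicle, 78 to 354 between foods under corticosterone, 2 to 15 for the interaction and up to 2 for diabetes. Depth limits mt-Atp6, mt-Te, mt-Tc and mt-Ts2.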
